A study of Mus musculus with 2 samples.

Results

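Oxidative enzymes of foreign-compound metabolism were followed through organoids grown from normal mouse urothelium, the stratified epithelium that lines the bladder. The group held 10 listed genes of 31053 measured, chosen by symbol: the cytochrome P450 genes Cyp2f2, Cyp4b1, Cyp1a1 and Cyp1b1, the flavin monooxygenase genes Fmo1, Fmo2 and Fmo5, the alcohol dehydrogenase gene Adh7 and the aldehyde dehydrogenase genes Aldh1a3 and Aldh3a1. Unselected urothelial cells of wild-type C57BL/6 mice aged 8 to 10 weeks were grown in Matrigel, and both cultures shared this origin. Library P (proliferative, NMU-O-P) came from organoids kept in complete medium, and library D (differentiated, NMU-O-D) from organoids whose medium was later stripped of WNT3A, RSPO1, EGF, Noggin and the TGF-beta receptor inhibitor LY2157299. Each condition was 1 droplet library of dissociated cells, so no replicate spread was available and no difference was tested.

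These enzymes carry out the first, oxidative step in the handling of foreign compounds and of many body lipids. Cytochrome P450s insert oxygen with electrons passed on by the reductase Por, flavin monooxygenases oxygenate soft nucleophiles such as amines and sulphides, and alcohol and aldehyde dehydrogenases turn alcohols into aldehydes and aldehydes into acids. The products can be less toxic or more reactive than the parent compound, which is why such enzymes are studied in the bladder, where urine brings arylamines and other carcinogens into contact with the epithelium. Several of them also act on retinol and retinal, the precursors of retinoic acid.

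Cells were kept when they had over 800 detected genes and at most 12% mitochondrial UMIs (unique molecular identifiers, each standing for 1 captured transcript). That left 6818 of 8194 barcodes in P and 4896 of 6975 in D, with 26681469 and 20305621 UMIs and medians of 3405.5 and 3227.5 UMIs per cell. The libraries shared 6 kept barcodes. The share of ribosomal protein UMIs was 37.4% for P and 21.4% for D, and the median log2 ratio of D over P across 8939 well-measured genes was 0.42. Levels are given in CPM, counts per 1000000 UMIs, which for 3′ UMI counts do not scale with transcript length. The 4 epithelial markers summed to 1023 and 2839 CPM. Fibroblast markers summed to 1.99 and 62.5 CPM, nearly all of it Dcn, while Col1a2 was at 0 in both libraries. Leukocyte markers summed to 1.01 and 20.2 CPM, in D nearly all Laptm5 (400 UMIs, against 7 in P), with Ptprc at 1 and 2 UMIs, and the 5 endothelial markers summed to 5.51 and 3.40. The part of the ribosomal share and of these markers in the results was not tested.

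A sum of at least 100 UMIs was reached by 7 of the 10 genes, and 5 of the 7 were at least 2-fold higher in D. Adh7 (52.9-fold), Fmo5 (35.6-fold), Cyp2f2 (14.0-fold) and Fmo2 (9.70-fold) differed most and Cyp1b1 least (2.27-fold). Aldh1a3 was 4.43-fold higher in P, and Aldh3a1 stayed under 2-fold. Past the same limits stood 13.5% of all 10719 such genes in the direction of D and 4.73% in that of P. The median log2 ratio of the 7 genes was 3.28, against 0.41 for all genes with that many UMIs. With levels centred on the median gene, the shares over all genes were 5.64% and 8.65%, 4 of the 7 genes were at least 2-fold higher in D, Cyp1b1 no longer being among them, and Aldh1a3 was still higher in P. All intervals given here are 95% intervals and cover counting error only.

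**Figure D1:**
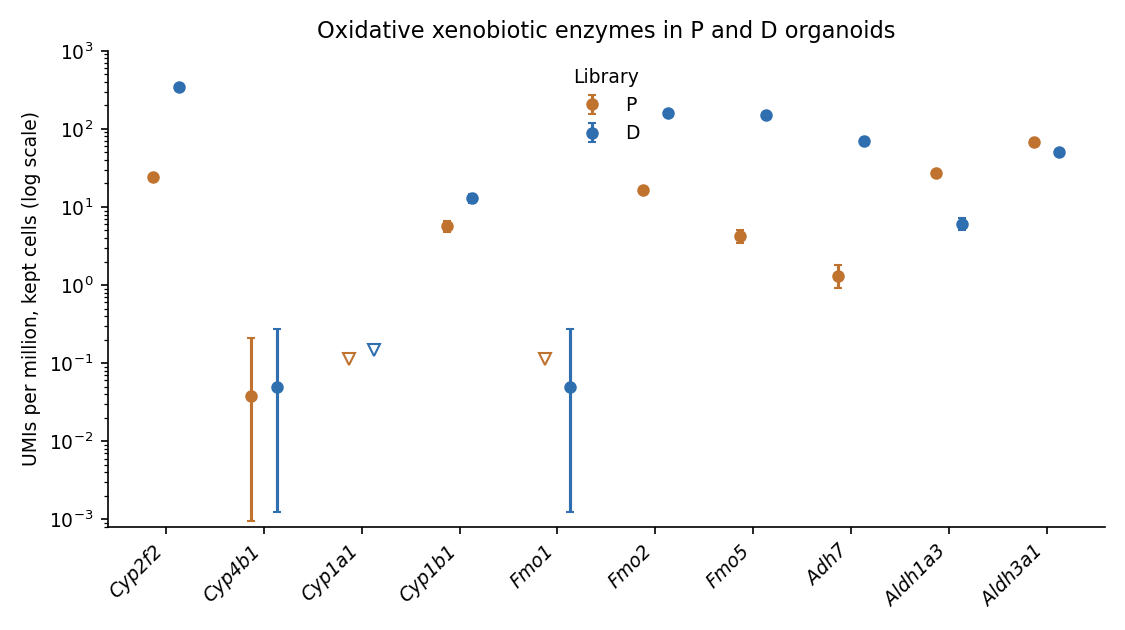
Level of each gene in CPM over the kept cells of library P (orange) and library D (blue), on a log axis, with exact Poisson 95% intervals, some smaller than the points. Open triangles mark genes with a count of 0 and are drawn at the level of 3 UMIs. Cyp2f2, Fmo2, Fmo5 and Adh7 lay far higher in D, Aldh1a3 lay higher in P, and Cyp4b1, Cyp1a1 and Fmo1 lay at the bottom in both.

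Among the P450 genes, Cyp2f2 was the most abundant member in D. Cyp2f2, known from the club cells of the lung airway where it turns naphthalene into a reactive epoxide, spans chr7:27119909-27133660 (GRCm38, plus strand). It had 24.4 CPM (22.6 to 26.4) in P against 342 (334 to 350) in D, from 652 and 6937 UMIs, a log2 ratio of 3.81 (3.69 to 3.92). Counting could have confused little of this with its overlapping antisense gene Gm15883, which had 2 and 9 UMIs. In D a few cells carried much of it, since the 460 cells with 5 or more Cyp2f2 UMIs held 52.9% of its UMIs, and the richest cell had 34.

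Cyp1b1 oxidizes polycyclic aromatic hydrocarbons and steroids and, like Cyp1a1, is a target of the aryl hydrocarbon receptor (Ahr), the ligand-activated factor that senses such compounds. It lies at chr17:79701537-79715061 on the minus strand and had 5.66 CPM (4.79 to 6.64) in P against 12.9 (11.3 to 14.5) in D, a log2 ratio of 1.18 (0.89 to 1.48). Centred on the median gene, the ratio was 0.76. Cyp1a1 (chr9:57687928-57703824, plus strand), which is strongly induced by the receptor in many tissues, was listed at 0 UMIs in both libraries, which allows up to 0.138 CPM in P and 0.182 in D. Cyp4b1 (chr4:115624725-115647723, minus strand), which hydroxylates fatty acids and activates some aromatic amines, had 1 UMI in each library. At this depth the libraries could not be compared for either gene.

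Upstream sequence is shown for the pair of P450 genes known as Ahr targets, because Cyp1b1 was detected in both libraries and Cyp1a1 in neither. Each run is the 250 bases before the RefSeq start of transcription in GRCm38.p6, 5′ to 3′ on the gene's strand, and overlaps no exon of the GENCODE annotation. Capitals mark the core of the Ahr binding motif, GCGTG, or its reverse complement CACGC. The Cyp1a1 run lies at chr9:57697363-57697612 on the plus strand and the Cyp1b1 run at chr17:79715062-79715311 on the minus strand.
Cyp1a1: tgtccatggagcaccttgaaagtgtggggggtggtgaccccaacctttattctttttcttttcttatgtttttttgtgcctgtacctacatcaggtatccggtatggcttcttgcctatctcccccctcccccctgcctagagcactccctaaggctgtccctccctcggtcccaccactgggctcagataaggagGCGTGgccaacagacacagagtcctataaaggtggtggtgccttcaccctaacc
Cyp1b1: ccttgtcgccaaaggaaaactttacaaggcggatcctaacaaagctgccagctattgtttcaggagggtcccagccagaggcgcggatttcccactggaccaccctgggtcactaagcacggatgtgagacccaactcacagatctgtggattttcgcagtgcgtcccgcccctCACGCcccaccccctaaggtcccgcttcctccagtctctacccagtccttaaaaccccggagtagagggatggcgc
Both hold the core, with its first base 54 bases before the start in Cyp1a1 and 76 bases before it, on the opposite strand, in Cyp1b1. Of all 32851 RefSeq promoter windows of 300 bases (250 before the start and 50 after), 32.4% hold it on either strand, so its presence sets neither gene apart.

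Flavin monooxygenases followed the same direction. Fmo2, the main form of mammalian lung, lies at chr1:162874317-162898726 on the minus strand and had 16.6 CPM (15.1 to 18.2) in P against 161 (156 to 167) in D, from 443 and 3271 UMIs, a log2 ratio of 3.28 (3.13 to 3.42). Fmo5 (chr3:97628804-97655282, plus strand), which differs from its relatives in oxidizing ketones to esters, had 4.24 CPM (3.49 to 5.09) in P against 151 (146 to 156) in D, a log2 ratio of 5.15 (4.88 to 5.44). Its UMIs were concentrated in fewer D cells than those of Cyp2f2, the 10% of cells richest in each gene holding 74.1% of Fmo5 and 54.6% of Cyp2f2 UMIs (65.7% for Adh7). In D, 171 cells with 5 or more Fmo5 UMIs held 43.9% of them, with up to 26 in a cell, and no P cell had more than 4. Fmo1, next to Fmo2 at chr1:162829561-162866610 on the minus strand and abundant in mouse liver and kidney, had 0 UMIs in P, which allows up to 0.138 CPM, and 1 UMI in D.

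Among the dehydrogenases the directions were split. Adh7 (chr3:138217760-138233382, plus strand), the class IV alcohol dehydrogenase of upper digestive epithelia that oxidizes ethanol and retinol, had only 35 UMIs in P and 1410 in D, or 1.31 CPM (0.914 to 1.82) and 69.4 (65.9 to 73.2). Its log2 ratio of 5.73 (5.24 to 6.25) was the highest of the group, and the overlapping antisense gene 0610031O16Rik had 1 and 11 UMIs. Aldh1a3 (chr7:66390890-66427517, minus strand), which makes retinoic acid from retinal, had 27.0 CPM (25.1 to 29.1) in P against 6.11 (5.08 to 7.28) in D, a log2 ratio of −2.15 (−2.43 to −1.87). It was the only gene of the 7 at least 2-fold higher in P. Aldh3a1 (chr11:61207537-61218421, plus strand), abundant in cornea and active on aromatic aldehydes and those left by lipid peroxidation, was the most abundant member in P, with 68.8 CPM (65.7 to 72.0) against 51.2 in D (48.1 to 54.4). Its log2 ratio was −0.43 (−0.54 to −0.32), and −0.85 after centring on the median gene.

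Upstream bases are also shown for Cyp2f2, Fmo2 and Adh7, which were all higher in D and for which the RefSeq window before the start is mostly free of annotated exons. The Cyp2f2 run (chr7:27119705-27119908, plus strand) and the Adh7 run (chr3:138217523-138217759, plus strand) stop at the first exon base that GENCODE places before the RefSeq start, and the Fmo2 run (chr1:162898759-162899008, minus strand) is the upstream window of the more distal of its RefSeq starts.
Cyp2f2: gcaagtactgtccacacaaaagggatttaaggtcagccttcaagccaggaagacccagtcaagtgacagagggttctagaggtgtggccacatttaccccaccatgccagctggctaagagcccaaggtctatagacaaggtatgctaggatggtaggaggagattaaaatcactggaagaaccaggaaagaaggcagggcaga
Fmo2: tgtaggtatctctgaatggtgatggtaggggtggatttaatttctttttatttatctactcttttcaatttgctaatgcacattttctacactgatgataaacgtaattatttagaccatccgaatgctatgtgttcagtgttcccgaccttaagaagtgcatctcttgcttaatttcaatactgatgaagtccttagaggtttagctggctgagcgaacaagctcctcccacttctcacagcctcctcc
Adh7: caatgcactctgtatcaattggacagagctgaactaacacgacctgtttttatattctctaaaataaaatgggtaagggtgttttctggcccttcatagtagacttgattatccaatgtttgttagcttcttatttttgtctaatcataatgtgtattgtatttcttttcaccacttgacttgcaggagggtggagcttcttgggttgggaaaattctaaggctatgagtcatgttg
None of these printed runs holds GCGTG on either strand, so they carry no capitals. Over the whole windows of 300 bases, the core stood in Adh7, 13 bases after the start, and not in those of Cyp2f2, Fmo2, Fmo5 or Cyp4b1. The antioxidant response element was searched as TGACNNNGC on both strands and was found in no window of the 7 genes matched, against 12.4% of all windows. These matches describe letters only. Fmo1, Aldh1a3 and Aldh3a1 were not matched.

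Each cell was next placed in a state by marker genes outside the group. Cells with at least 2 UMIs of the 5 uroplakin genes, the plaque proteins of the luminal surface, were called uroplakin cells. The others were called basal (Krt5, Krt14, Trp63 and 5 further markers) or squamous (Ivl, Krt6a, Flg and 7 further markers, of which Sprr1b had no UMI) by the higher score if above 0, and the rest were called other. P held 2778 basal, 2193 squamous, 93 uroplakin and 1754 other cells, and D held 1938, 244, 2181 and 533. The states are ranges and not cell types. Scores lay within 0.1 of a boundary in 1984 P and 701 D cells, and 423 of the D uroplakin cells had just 2 uroplakin UMIs. In P, 71 of the 93 uroplakin cells had a leading squamous score. Of the 2181 in D, 630 had a leading basal and 602 a leading squamous score, and in D the squamous markers Flg, Cnfn and Krtdap were at 1, 2 and 0 UMIs, so a squamous cell there rests on Ivl, Krt6a and Lor. The basal marker Krt15 ran against its list in D, with 6296 CPM in basal cells, 8814 in squamous, 7733 in uroplakin and 7967 in other cells. The other basal markers were highest in basal cells of D, Cd44 only slightly, at 126 CPM against 105 in uroplakin cells. Uroplakin cells were also deeper, with a median of 5224 UMIs in P and 4025 in D, against 3127 and 2794.5 in basal cells.

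Within D, Fmo5 stood out by state. Its level was 28.3 CPM in basal cells (24.3 to 32.8), 87.9 in squamous cells (68.1 to 112), 74.1 in other cells (61.1 to 89.1) and 231 in uroplakin cells (223 to 240). The log2 ratio of uroplakin over basal cells was 3.03 (2.81 to 3.26). Cyp2f2 was spread more widely, with 143 CPM in basal cells, 335 in squamous, 435 in uroplakin and 450 in other cells, and a uroplakin over basal ratio of 1.61 (1.5 to 1.71). Adh7 had 37.3 CPM in basal cells and between 68.2 and 85.1 in the other states, with a ratio of 1.19 (0.98 to 1.40). These 3 of the 7 genes with enough UMIs were at least 2-fold higher in uroplakin than in basal cells and 0 were lower, where 4.2% and 4.02% of 9153 genes were.

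Fmo2 varied less by state in D. It had 112 CPM in basal cells and 180 to 211 in the other states, a uroplakin over basal log2 ratio of 0.69 (0.56 to 0.81), and its levels in uroplakin, other and squamous cells had overlapping intervals. Cyp1b1 was slightly lower in uroplakin cells, at 10.9 against 15.3 CPM in basal cells, with a ratio of −0.49 (−0.88 to −0.09). Aldh3a1 was level across states, between 49.8 and 53.1 CPM with overlapping intervals, and Aldh1a3 ranged from 4.74 in basal to 14.4 in squamous cells, the latter from 11 UMIs. Against squamous cells, only Fmo5 was at least 2-fold higher in uroplakin cells, with a log2 ratio of 1.39 (1.05 to 1.77), 1 of 6 genes with enough UMIs where 3.62% of all genes were, and 0 were lower, where 1.03% of all genes were. Squamous over basal cells of D gave 2 of 6 genes at least 2-fold higher, Fmo5 at 1.64 (1.21 to 2.05) and Cyp2f2 at 1.23 (1.02 to 1.43), and 0 lower, where 1.38% and 3.58% of 6812 genes were.

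**Figure D2:**
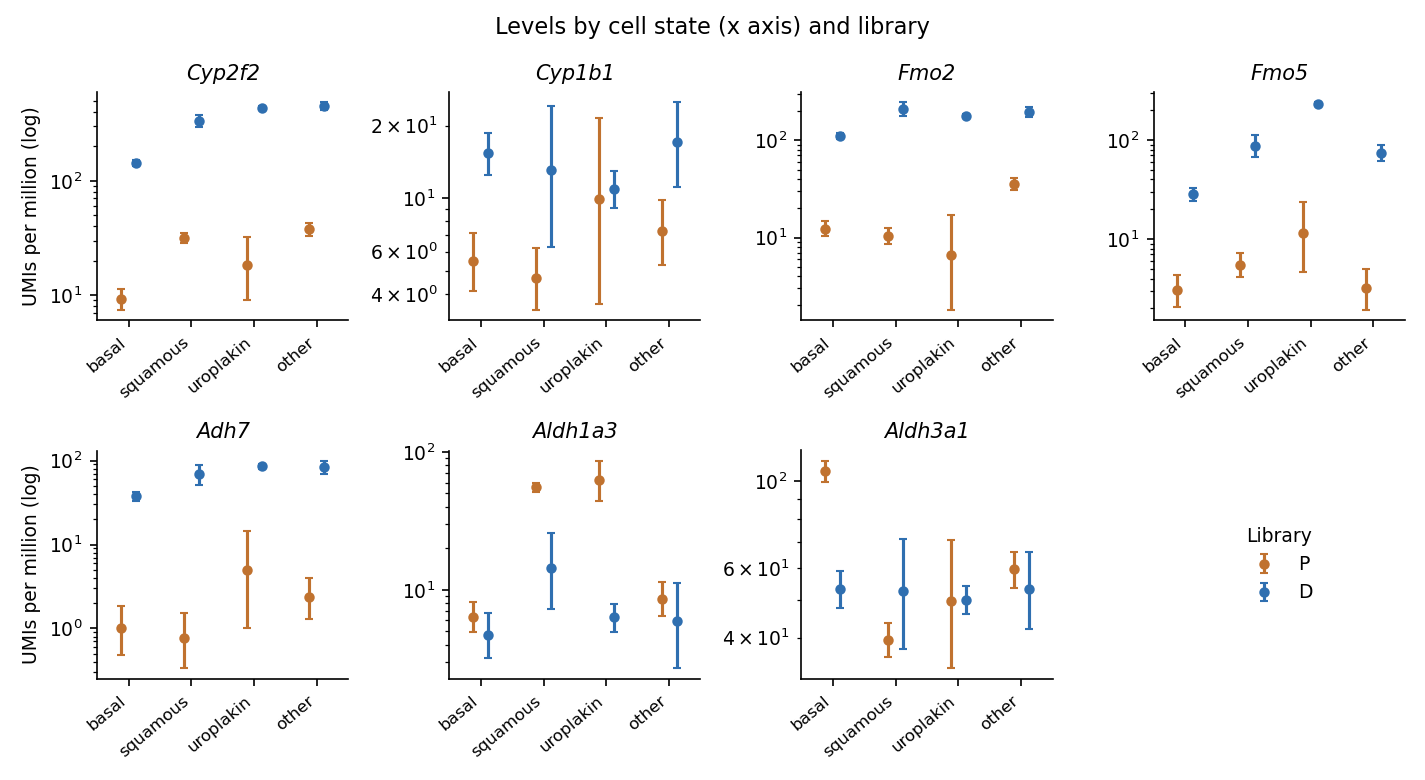
Levels of the 7 best-detected genes, in CPM on log axes that differ between panels, by cell state in P (orange) and D (blue), with exact Poisson 95% intervals. Cyp2f2, Fmo2, Fmo5 and Adh7 were higher in D in every state, Aldh1a3 was high in squamous and uroplakin cells of P, and Aldh3a1 was high in basal cells of P.

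Within P, the levels of the aldehyde dehydrogenases differed in opposite directions between basal cells and squamous or uroplakin cells. Aldh1a3 had 6.39 CPM in basal cells (4.91 to 8.18), 55.2 in squamous cells (50.8 to 60.0) and 62.7 in uroplakin cells (44.4 to 86.1, from 38 UMIs). Aldh3a1 ran the other way, with 106 in basal cells (99.7 to 113), 39.5 in squamous cells (35.8 to 43.5) and 49.5 in uroplakin cells (33.4 to 70.7). The squamous over basal log2 ratios were 3.11 (2.73 to 3.51) for Aldh1a3 and −1.42 (−1.59 to −1.26) for Aldh3a1. Cyp2f2 was also higher in squamous than in basal cells of P, at 31.6 against 9.23 CPM, a ratio of 1.78 (1.44 to 2.13), and was highest in the other cells at 37.9. So 2 of 5 genes with enough UMIs were at least 2-fold higher and 1 was lower in squamous cells, where 5.24% and 8.32% of 8910 genes were.

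The few uroplakin cells of P allowed 4 genes to be compared with basal cells, of which Aldh1a3 was at least 2-fold higher and Aldh3a1 lower, where 7.5% and 14.9% of 7277 genes were. Without the 5% of cells with most UMIs, Aldh3a1 fell just short of 2-fold, at a log2 ratio of −0.985 against −1.10, and Aldh1a3 had under 100 UMIs and was not compared. Against squamous cells of P, 0 of 4 genes were 2-fold higher and 0 lower, where 2.88% and 3.24% of 6909 genes were. Fmo2 in P was highest in the other cells, at 35.5 CPM against 12.4 in basal and 10.4 in squamous cells. Fmo5 and Adh7 had at most 57 UMIs in every state of P, and no order of their levels was read.

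Finer ordering by marker content showed how members differed among themselves. D cells were thinned to 2100 UMIs each, which left 4417 cells, and were grouped by their uroplakin UMIs (0, 1, 2 to 3, 4 to 7, 8 to 15, and 16 or more). Fmo5 was higher in each successive group, at 44.8, 107, 179, 292, 444 and 615 CPM, with no overlap of neighbouring intervals. Cyp2f2 had its highest level in the middle, at 208, 458, 579, 499, 204 and 82.3 CPM. The 110 cells richest in uroplakins therefore had more Fmo5 (518 to 725) and less Cyp2f2 (49.5 to 128) than the 2053 cells without a uroplakin UMI (38.7 to 51.5 and 195 to 222).

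The remaining members gave other shapes. Adh7 had 46.4 CPM without uroplakin UMIs, 78.8 to 93.2 in the middle groups and 139 (94.8 to 196) in the richest cells. Fmo2 was nearly level from 1 uroplakin UMI on, between 143 and 195. Aldh3a1 was highest at 2 to 3 uroplakin UMIs, at 70.6 (57.8 to 85.4), and had 22.0 (11.0 to 39.4) at 8 to 15. Cyp1b1 went from 16 (12.5 to 20.3) without uroplakin UMIs to 4.0 (0.485 to 14.5) at 8 to 15, the latter from 2 UMIs. Before thinning the groups had medians of 3024 to 4647.5 UMIs per cell, and the mitochondrial share after thinning was 6.32% in the first group and 7.22 to 7.84% in the others.

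Grouping by Upk3a alone, a choice made after seeing the data, gave 103, 259, 348, 404 and 690 CPM of Fmo5 at 0, 1, 2 to 3, 4 to 7, and 8 or more Upk3a UMIs. Cyp2f2 then had 354, 341, 361, 190 and 95.2. Without the 5% of D cells with the most UMIs, the cells with 16 or more uroplakin UMIs had 629 CPM of Fmo5 and 80.9 of Cyp2f2.

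**Figure D3:**
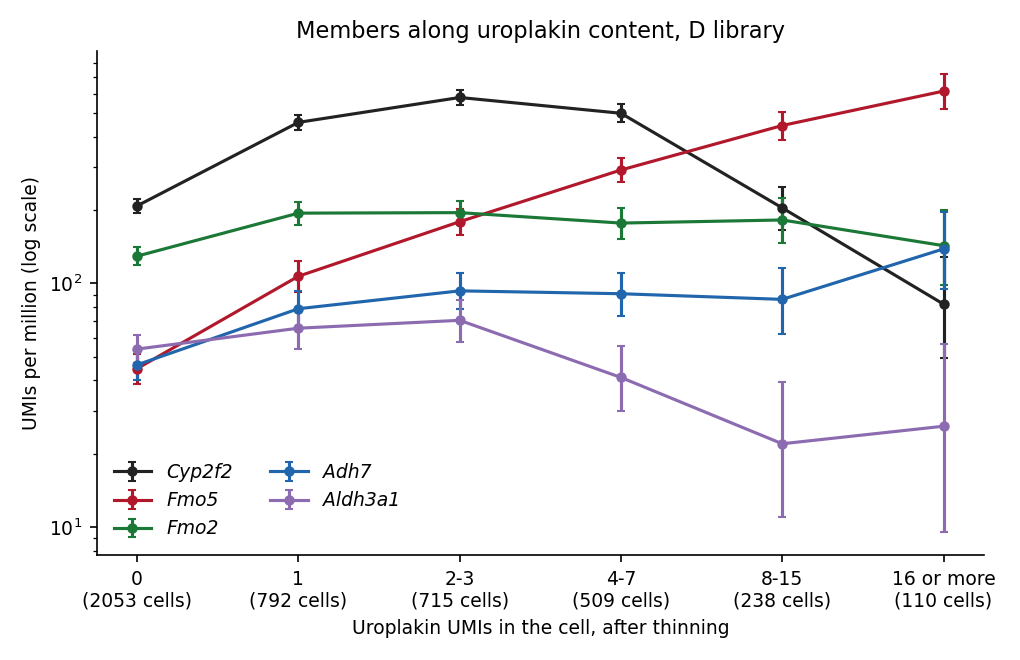
Levels in CPM (log axis) of 5 members in D cells thinned to 2100 UMIs, grouped by the number of uroplakin UMIs in the cell, with exact Poisson 95% intervals. Fmo5 climbs from 44.8 to 615, Cyp2f2 peaks at 579 in cells with 2 to 3 uroplakin UMIs and is lowest, at 82.3, in the richest cells, and Fmo2 stays between 129 and 195.

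Cells with under 2 uroplakin UMIs were also cut into quartiles of the basal score within each library. In P, Aldh3a1 had 29.7, 50.2, 84.8 and 116 CPM from the lowest to the highest quartile. Aldh1a3 ran against it, at 54.1, 24.95, 18.6 and 5.63. In D, Aldh3a1 was level at 52.0, 56.7, 52.8 and 50.9. Cyp2f2 in D was lower with a higher basal score, at 443, 216, 158 and 70.6 CPM, while in P it had 23.5, 45.5, 21.2 and 6.13. Along the squamous score of P, whose lowest quartile is enlarged by tied scores, Aldh1a3 had 3.18, 9.44, 19.2 and 61.0. Whether the slope of a gene differed between the libraries could not be tested with 1 library each.

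**Figure D4:**
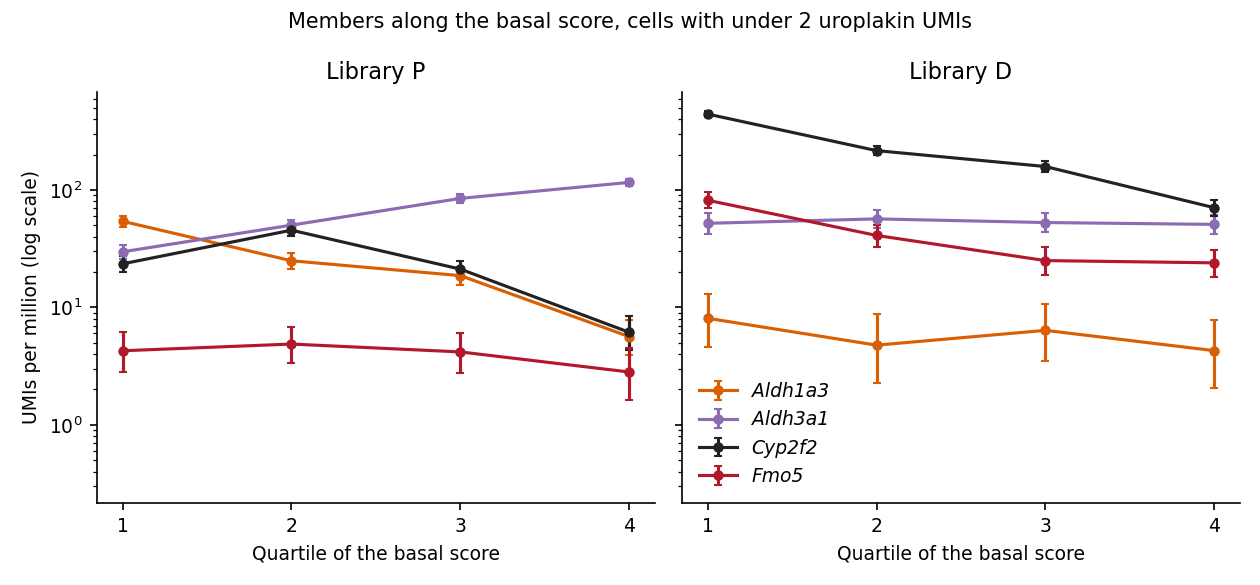
Levels in CPM (log axis) of 4 members by quartile of the basal score in cells with under 2 uroplakin UMIs, for P (left) and D (right), with exact Poisson 95% intervals. Aldh3a1 climbs with the basal score in P, from 29.7 to 116, and is level in D, while Cyp2f2 is lowest in the most basal quartile of both.

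The library difference was then taken within states. In basal cells, Cyp2f2 had 9.23 CPM in P and 143 in D, Fmo2 12.4 and 112, Fmo5 3.04 and 28.3, and Adh7 1.01 and 37.3. Their log2 ratios were 3.95 (3.64 to 4.28), 3.18 (2.90 to 3.46), 3.22 (2.65 to 3.83) and 5.2 (4.30 to 6.28). With Cyp1b1 at 1.49 (0.99 to 1.99), 5 of 6 genes with enough UMIs were at least 2-fold higher in D. Among all 8924 such genes of basal cells, 12.2% were. In P, Fmo5 and Adh7 had only 30 and 10 UMIs in this state. The differences in Cyp2f2, Fmo2 and Adh7 were thus of similar size in basal cells and in whole libraries, whereas Fmo5 differed by 3.22 in basal cells and 5.15 in whole libraries. Basal cells were the state of D with the lowest level of each of these genes. The part of RNA from outside the cells in those basal levels was not tested. Ribosomal protein genes differed between the libraries within this state too, at 39.0% of UMIs in P and 22.6% in D, and Dcn had 3.04 and 142 CPM there.

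Aldh3a1 was lower in basal cells of D, at 53.1 against 106 CPM, a log2 ratio of −0.997 (−1.18 to −0.82) that fell just short of the 2-fold line, where 3.92% of genes passed it. In uroplakin cells its levels were 49.8 and 49.5, a ratio of 0.01 (−0.52 to 0.59), and in squamous cells 52.5 and 39.5. Aldh1a3 was lower in D among squamous cells, with a log2 ratio of −1.94 (−2.95 to −1.09), and among uroplakin cells, with −3.31 (−3.89 to −2.71). In basal cells its 63 and 30 UMIs gave −0.43 (−1.11 to 0.22).

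Among squamous cells, 3 of 5 genes with enough UMIs were at least 2-fold higher in D (Cyp2f2, Fmo2 and Fmo5) where 13.9% of 7004 genes were, and 1 was lower where 4.97% were. Among uroplakin cells, 4 of 7 were higher where 20.2% of 8199 genes were, and 1 was lower where 2.87% were. Cyp2f2 had 18.2 CPM in uroplakin cells of P from 11 UMIs and 435 in those of D, a log2 ratio of 4.58 (3.74 to 5.59). Cyp1b1 gave 0.14 (−1.02 to 1.62) there. Among other cells, 4 of 5 genes were higher in D, where 12.1% of 6100 genes were. Fmo5 and Adh7 had only 19 and 14 UMIs there in P. Dcn had 1.65 and 17.6 CPM in the uroplakin cells of P and D and Laptm5 had 0 and 26.7, the former being far below its level in basal cells of D.

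Detection per cell was compared after thinning every cell to 2100 UMIs, which left 6638 P cells (180 left out) and 4417 D cells (479 left out), with medians before thinning of 3450 and 3395. Cyp2f2 was found in 2.89% of P cells (2.50 to 3.32) and 34.9% of D cells (33.5 to 36.3), Fmo2 in 2.85% and 24.4%, Fmo5 in 0.813% and 17.0%, and Adh7 in 0.226% and 12.2%. Aldh1a3 was found in 3.63% and 1.25%, Cyp1b1 in 1.08% and 2.72%, and Aldh3a1 in 12.2% (11.4 to 13) and 10.3% (9.46 to 11.3). Without thinning the shares were 4.72% and 42.8% for Cyp2f2, 4.66% and 35.9% for Fmo2, 1.53% and 23.8% for Fmo5, 0.396% and 19.9% for Adh7, 7.29% and 2.17% for Aldh1a3, 2.13% and 4.88% for Cyp1b1, and 19.1% and 17.2% for Aldh3a1. When 2 UMIs of the gene were required in a thinned cell, the shares were 0.994% and 17.8% for Cyp2f2, 0.467% and 6.91% for Fmo2, 0.0301% and 6.54% for Fmo5, 0.0452% and 1.92% for Adh7, and 2.0% and 0.974% for Aldh3a1. At least 2 members were found in 29.6% of D cells (28.3 to 31.0) and 1.81% of P cells (1.5 to 2.16), and none in 37.8% and 78.2%.

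No state of these epithelial cultures is known to lack the genes, so the lowest state served as the upper limit for UMIs from RNA outside the cell. In D the lowest shares were those of basal cells for Cyp2f2 (17.6%), Fmo2 (15.4%), Fmo5 (5.19%) and Adh7 (6.61%), at a median depth of 2998 UMIs before thinning. Uroplakin cells, with a median of 4087.5, had 46.1%, 29.2%, 27.8% and 15.9%. The part of such RNA in the shares of D was not tested. Ratios between members were also taken by state. There were 5.05 Cyp2f2 UMIs for each Fmo5 UMI in basal cells of D (4.30 to 5.96), 3.81 in squamous cells (2.90 to 5.06), 1.88 in uroplakin cells (1.80 to 1.97) and 6.07 in other cells (4.97 to 7.47). Cyp2f2 UMIs for each Fmo2 UMI numbered 1.28 (1.16 to 1.41), 1.58 (1.30 to 1.94), 2.42 (2.30 to 2.55) and 2.28 (1.99 to 2.62) in the same order. For each Adh7 UMI they numbered 3.83 (3.32 to 4.44), 4.90 (3.63 to 6.74), 5.12 (4.78 to 5.48) and 5.40 (4.46 to 6.58). That pair varied less, with intervals that overlapped except between basal cells and uroplakin or other cells. The shares of Aldh1a3 in D (0.927% of basal and 1.18% of uroplakin cells) and of Cyp1b1 did not rise clear of such a level. Those of Aldh3a1 in D did not either, from 8.37% of squamous to 11.2% of basal cells, with overlapping intervals. No expression per cell was read from the D shares of these genes.

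Members were found in the same cells to different degrees. Among basal cells of D, Fmo2 was found in 34.2% of cells with a Cyp2f2 UMI (28.7 to 39.99) and 11.4% of those without (9.74 to 13.2). For Adh7 the shares were 20.4% (15.9 to 25.6) and 3.67% (2.73 to 4.83), and for Fmo5 14.8% (10.9 to 19.5) and 3.15% (2.28 to 4.23). Among uroplakin cells of D the contrast was smaller for Fmo2, at 34.6% and 24.7%, and for Adh7, at 18.6% and 13.5%. Fmo5 was found there in 27.4% of cells with Cyp2f2 (24.7 to 30.4) and 28.1% of those without (25.5 to 30.8), a difference within counting error. In P, Fmo2 was found in 9.38% of the 192 cells with Cyp2f2 (5.65 to 14.4) and 2.65% of the others (2.27 to 3.07).

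The genes most like each member were taken by Pearson correlation of log-scaled counts over the cells of the library where the member had more UMIs, as a description, since the cells share a library and the members' own correlation with total UMIs was 0.13 to 0.17 for Cyp2f2, Fmo2, Fmo5 and Adh7. Over 4896 D cells, Cyp2f2 was most like the carbonyl reductase gene Cbr2 (r = 0.51), the glutathione transferase gene Gstm1 (0.45) and Wfdc2 (0.43), which encodes a secreted protease-inhibitor-like protein. Fmo5 was most like Upk1a (0.38), Psca (0.37) and Gstm1 (0.36). Adh7 was nearest to the mucosal keratin Krt4 (0.32), then Sptssb (0.29) and Cyp2f2 (0.27), and Fmo2 to Cyp2f2 (0.31), Gsta4 (0.28) and Krt19 (0.28). Over 6818 P cells, Aldh1a3 was most like Psca (0.35), Arg1 (0.33) and Nccrp1 (0.33), and Aldh3a1 was weakly like the basal keratin Krt15 (0.19), Tmem176b (0.18) and Gpx2 (0.18). No gene reached 0.10 with Cyp1b1, whose nearest in D were Jun (0.07), Tiparp (0.07) and Inpp1 (0.06).

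The nearest genes of the scarce Cyp2f2 of P, named after their values were seen, were the chemokine receptor gene Ccr2 (0.35), Agr2 (0.26), which encodes a disulphide isomerase of secretory cells, and Cxcl15 (0.26). Agr2 was found in 21.9% of thinned P cells with Cyp2f2 (16.2 to 28.4) and 2.13% of those without (1.79 to 2.51), and Ccr2 in 29.2% and 3.03%. In D the correlation of Cyp2f2 with Agr2 was 0.20, and no difference between the libraries was tested.

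The wider families beyond the 10 genes were also counted. Of 99 other genes of P450 families 1 to 4 and of the Fmo, Adh and Aldh families, 44 had no UMI and 22 had enough UMIs, of which 5 were at least 2-fold higher in D, 2 at least 2-fold higher in P and 15 neither, where 13.5% and 4.73% of all genes were higher in D and in P. Their median log2 ratio was 0.49, against 0.41 for all genes. Adh1, the class I alcohol dehydrogenase gene, had 13 UMIs in P and 1205 in D, a log2 ratio of 6.93 (6.15 to 7.84) that exceeded that of Adh7. Aldh3b2 had a ratio of 2.37 (2.20 to 2.55). The other genes higher in D, named after their values were seen, were Aldh3b1 at 1.64 (1.07 to 2.24) and Cyp4v3 at 1.59 (1.25 to 1.93). Aldh1a1, which like Aldh1a3 makes retinoic acid, had 18.9 CPM in P and 94.8 in D, a ratio of 2.33 (2.18 to 2.47) opposite in sign to that of Aldh1a3. Higher in P were the folate enzyme gene Aldh1l1, at −2.16 (−2.90 to −1.48), and Cyp2s1, at −1.93 (−2.19 to −1.68).

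Electron donors, receptors and partner enzymes made up a list of 17 genes. Enough UMIs were found for 13, and D was at least 2-fold above P for 4 of them and below it for 0, where 13.5% and 4.73% of all genes were. Cyb5a, whose cytochrome b5 passes electrons to P450s, had 218 CPM in P and 598 in D, a log2 ratio of 1.46 (1.41 to 1.5), the aldo-keto reductase gene Akr1b8 had 1.27 (1.20 to 1.34) the epoxide hydrolase gene Ephx1 had 1.21 (1.11 to 1.32) and, named after its values were seen, the cytochrome b5 reductase gene Cyb5r3 had 1.12 (1.03 to 1.20). Centred on the median gene, Cyb5a stayed past 2-fold at 1.04 and Akr1b8 (0.85), Ephx1 (0.79) and Cyb5r3 (0.69) did not. Por, which every microsomal P450 needs, had 130 and 148 CPM, a ratio of 0.18 (0.11 to 0.25) that became −0.24 after centring.

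The partner list also held the receptor gene Ahr and its targets Tiparp, Nqo1 and Ahrr. Ahr had 85.3 CPM in P and 116 in D, a log2 ratio of 0.45 (0.36 to 0.53), or 0.02 after centring. Its targets Tiparp and Nqo1 were lower in D, at −0.96 (−1.11 to −0.81) and −0.94 (−1.18 to −0.71), each just short of 2-fold before centring and past it at −1.38 and −1.36 after. Ahrr, the receptor's repressor and target, had 2 UMIs in each library.

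**Figure D5:**
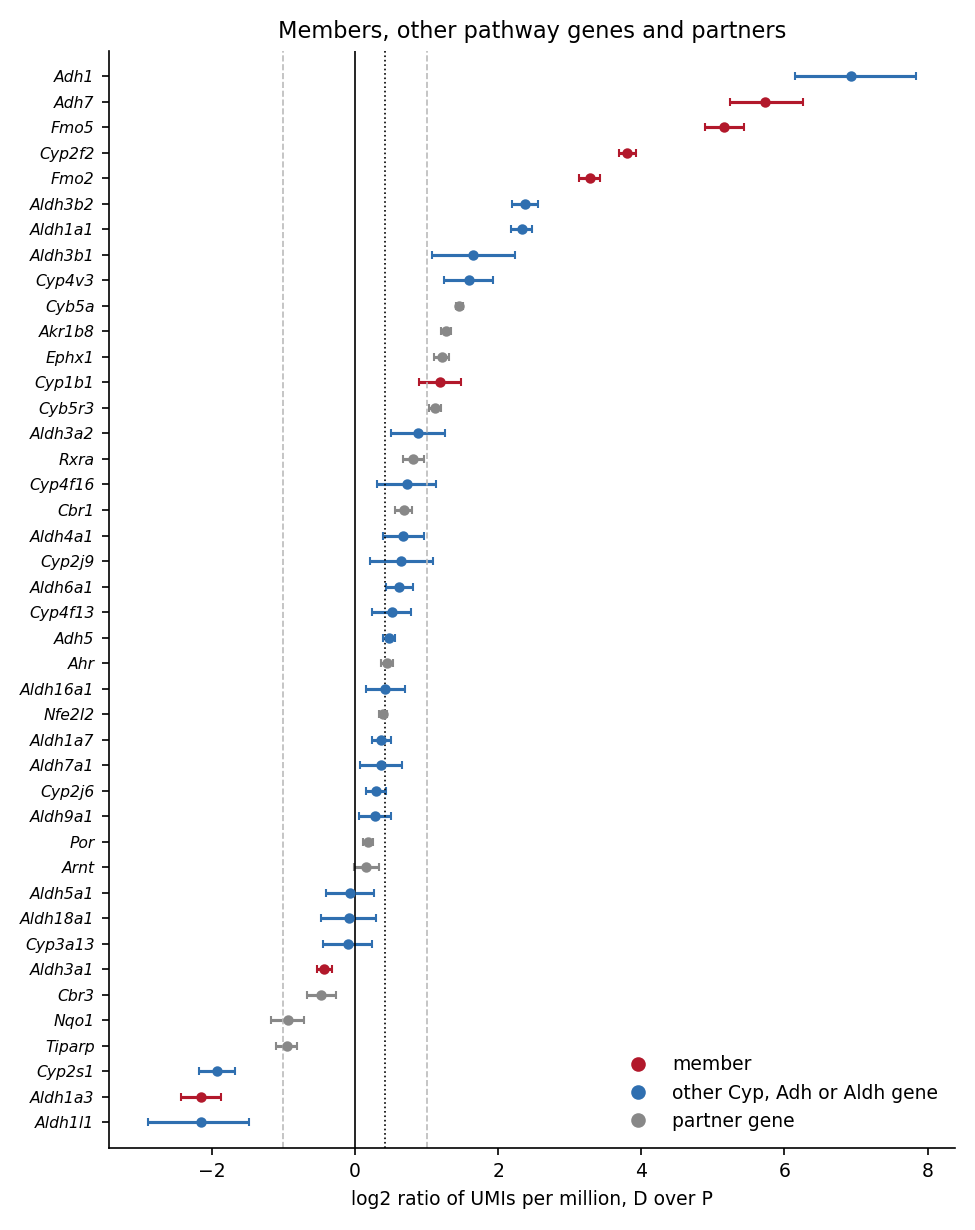
Log2 ratio of D over P in CPM, with exact conditional 95% intervals, for the 7 members (red), 22 other Cyp, Adh and Aldh genes (blue) and 13 partner genes (grey) that reached 100 UMIs. The solid line is 0, the dotted line the median gene at 0.42 and the dashed lines 2-fold either way. Adh7, Fmo5, Cyp2f2 and Fmo2 lie beyond 3, with Adh1 above them, while Aldh1a3 lies near −2.15.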

How the data were processed

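The authors sequenced 3′ droplet libraries (10x chemistry v3) from dissociated organoids, 1 each for P and D. Per the labels and the study's methods, base calls were converted with bcl2fastq 2.19.0, and Cell Ranger 3.0.2 aligned and counted the reads on GRCm38 (mm10). The deposited matrices hold raw UMI counts per gene and cell barcode, without normalization. Cells with over 800 genes and at most 12% mitochondrial UMIs were kept, the filter the authors stated. It left 6818 P cells here, slightly fewer than the study reported, and the same number of D cells. No doublet caller was run. Instead, results were recomputed without the 5% of cells with most UMIs.

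UMIs were summed per library or state and divided by the summed total (CPM). Levels carry exact Poisson, ratios exact conditional binomial and shares Clopper-Pearson 95% intervals. With 1 library per group there was no test. A gene was counted as higher or lower at a ratio of at least 2 with at least 100 UMIs over the 2 groups compared, computed over all genes. Scores were mean z values of log1p(10000 × UMIs / total) over the markers. Thinning drew 2100 UMIs per cell without replacement. All 10 members are named, with the 3 genes of largest ratio in each direction among those counted as higher or lower, of the other family genes and of the partners, and Por, Ahr, Ahrr, Tiparp and Nqo1. The ratio and its interval were tested on simulated counts, and the Poisson and Clopper-Pearson intervals were not.

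The members, lists and state rules were chosen with earlier results of these data known. Gene positions are from GENCODE M21 and promoters from RefSeq (GRCm38.p6), in which 7 of the 10 members were matched. Protein sequences were not used here. Analyses used Python 3.11.15, NumPy 2.4.6, SciPy 1.17.1 and pandas 2.3.3.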

Additional observations from a re-analysis of the deposited data

Results flagged for a closer look

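Members were also found in the barcodes that the cell filter left out, data outside the main measurement. The 2079 barcodes left out of D held 1491 UMIs of the 10 genes, or 720 per 1000000 non-mitochondrial UMIs (684 to 757), against 854 in the kept D cells (841 to 867) and 141 in the 1376 barcodes left out of P (125 to 158). In the left-out barcodes of D, Fmo5 had 191 per 1000000 non-mitochondrial UMIs (172 to 210) against 162 in kept cells (157 to 168), and Cyp2f2 had 267 (246 to 291) against 368 (359 to 377).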

How the results depend on the processing

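No paired analysis was possible because each condition was 1 library. The directions of the D over P ratios of the 7 members held under all 49 alternatives (cell filters, scalings, cell means, removal of the 5% of cells with most UMIs). The median of their log2 ratios was 2.94 when scaled without mitochondrial and ribosomal protein genes and 2.86 when scaled by the median ratio, and Cyp1b1, the member that left the D-high calls, had 0.85 and 0.76. Of 132 alternatives to ratios between or within states, 129 kept their sign, the others being ratios of Fmo2 in P. Of 30 alternatives to the shares of cells with a UMI (no thinning, or 2 UMIs required), 29 moved past the counting interval. The uroplakin cells of P gave the least stable counts. Members higher there than in basal cells numbered 2 with 1 uroplakin UMI as the limit, against 1 (Aldh1a3) as reported. They numbered 0 with 4 UMIs, with a score lead of 0.25, on thinned cells and without the 5% of cells with most UMIs. In the settings that gave 0, Aldh1a3 fell under the minimum of UMIs and was not compared. Where it was compared, its log2 ratio of uroplakin over basal cells of P was 2.97 to 3.29. Those counts of 0 therefore do not show a smaller difference. Members lower there numbered 0 with 1 uroplakin UMI, 0 without the 5% of cells with most UMIs and 2 when scaled without mitochondrial and ribosomal protein genes, against 1. Within the basal state, 1 member (Aldh3a1) passed 2-fold higher in P, against 0, with 1 uroplakin UMI, with a score lead of 0.25 and with the scaling without mitochondrial and ribosomal protein genes. The causes were not tested. With 1 library per condition, culture, dissociation and sequencing run cannot be told apart from the condition, and depth limits Cyp1a1, Cyp4b1 and Fmo1.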

Other observations

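Genes beside the members in the genome, named after their values were seen, were also looked at. Adh1 lies 27.6 kb from Adh7 on chromosome 3, and both were among the genes with the highest D over P ratios of the families. Beside Fmo2 on chromosome 1, where Fmo2 itself had 443 UMIs for P and 3271 for D, Fmo6 (17.8 kb away) had 7 and 24 and Fmo1 (7.71 kb away) had 0 and 1. Fmo6 and Fmo1 had too few UMIs to be compared between libraries.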
